A study of Gallus gallus with 12 samples.

Results

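Heat-exposed chicken embryos were the source of both groups compared here: 3 RNA-seq libraries labelled hypothalamus and 3 labelled whole brain, which are 6 of the 12 libraries of the series. The comparison was chosen by its labels alone and covers all genes, and the libraries of control embryos were not used. All 6 libraries came from White Leghorn embryos sampled on embryonic day 18. The eggs were warmed to 39.5 °C between embryonic days 13 and 18, an embryonic thermal manipulation, and otherwise incubated at 37.8 °C. Hypothalamus and whole brain thus share the heat exposure, so the comparison is one of tissues within heated embryos and not of heat with no heat. The labels give 3 biological replicates a group and 1 shared batch label. How many embryos went into each library and how the hypothalamus was dissected are not in the labels, so a p-value here measures spread among libraries, which may be technical. Of the 30742 rows of the count table, 15512 had enough counts to be tested.

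The hypothalamus is the ventral part of the diencephalon, and it controls body temperature, feeding, water balance and the pituitary gland. In vertebrates its neurons are laid out by transcription factors such as NKX2-1, RAX, SIX6, OTP and SIM1, and it makes peptides such as vasotocin, mesotocin, corticotropin-releasing hormone and proopiomelanocortin. Whole brain holds in addition the pallium and striatum of the telencephalon, the optic tectum, the cerebellum, the hindbrain and the choroid plexus, the tissue that makes cerebrospinal fluid.

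The count totals of the 6 libraries ranged from 13326994 to 16811362. The tissues separated on the first principal component of log2 CPM (CPM being counts relative to library size, with TMM scaling), which held 79.5% of the variance. The second component held 8.23%, and hypothalamus library 1 stood apart on it, at 34.46 against -20.54 and -18.95 for libraries 2 and 3. For that library alone, the deposited FPKM column did not come from the deposited counts. The reads recovered from it summed to 12161593, and 32.9% of rows held the same number as the counts. That share includes rows at 0 in both, and 19968 of the 30742 rows had deposited counts in that library. The hypothalamus-labelled libraries also varied more among themselves, with a median SD of 0.217 on the log2 CPM scale against 0.133 in whole brain. W-linked rows, which only females carry, held 0.113% of the counts of hypothalamus library 2 and 0.147% of whole-brain library 1, and 0.0105% to 0.0155% of the other 4. The mitochondrial genome held 4.36% of the counts in hypothalamus library 2 and 7.09% to 8.62% in the other 5.

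Over all genes, edgeR's quasi-likelihood test with Benjamini-Hochberg adjustment called 8896 of 15512 genes (57.3%) at an adjusted p below 0.05. Of these, 4412 (28.4% of the genes tested) were higher and 4484 (28.9%) were lower in the hypothalamus-labelled libraries, and the median log2 difference of all genes was 0.01. The 2 groups of libraries did not overlap for 10112 genes (65.2%), with the hypothalamus-labelled libraries higher for 31.8% and lower for 33.3% of the genes tested. With a log2 difference of at least 1, 2092 genes (13.5%) were called higher and 1730 (11.2%) lower. Without hypothalamus library 1 the test called 8946 genes, 8224 of them shared with the full comparison. With the reads recovered from its FPKM column in place of its counts, 7610 were called, 7410 of them shared. More genes were called than not, and the counts of gene groups are read against these shares. Log2 differences are hypothalamus-labelled minus whole brain, with a standard error (SE) from 3 against 3 libraries. Adjusted p-values are from the same edgeR test over all genes tested, and values in CPM stand in the order of libraries 1, 2 and 3, hypothalamus-labelled against whole brain, or as means ± SD (n = 3 and 3). In tissue samples such as these, fewer cells of a type and less RNA per cell cannot be told apart.

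The label was first set against genes of the hypothalamus, and they did not move together. Of 26 tested hypothalamic transcription factors, 11 (42.3%) were called higher and 9 (34.6%) lower, against 28.4% and 28.9% of all genes tested. The median log2 difference was 0.62, and summed levels of the list were 402.4, 383.8 and 364.1 CPM against 275.4, 252.8 and 272.3 CPM. NKX2-1 (GRCg7b chromosome 5, 36138043 to 36144905), which in mouse sets up the hypothalamus and is also needed in the ventral telencephalon, was at 0, 1.24 and 0 CPM in the hypothalamus-labelled libraries and 5.09, 5.46 and 4.87 CPM in the whole-brain libraries. Hypothalamus libraries 1 and 3 thus held no read of it, and all 3 lay below the 3 whole-brain libraries. The log2 difference was -3.52 ± 0.83 (adjusted p = 0.00483), and DESeq2, as an alternative, did not call it (adjusted p = 0.122). Without hypothalamus library 2, which held all its reads in the group, the fitted difference was -9.27. SIX6, a regulator of the optic and hypothalamic field that was singled out after its values were seen, was at 0.325, 0.248 and 0.253 CPM against 2.73, 3.68 and 4.02 CPM (-3.63 ± 0.38, adjusted p = 4.59e-05). RAX, an early regulator of the same field, was below the count filter, at 0.731, 0.746 and 0.316 CPM against 0.363, 0.263 and 0.461 CPM.

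Other regulators of the list lay in the opposite direction. OTP, needed in mouse for neurons that make neuroendocrine peptides, was at 11.6, 6.4 and 7.27 CPM in the hypothalamus-labelled libraries and 2.12, 3.55 and 2.24 CPM in the whole-brain libraries (log2 difference 1.67 ± 0.31, adjusted p = 0.00138). SIM1, which in mouse specifies the paraventricular nucleus, was at 2.11, 4.35 and 3.16 CPM against 0.908, 0.921 and 1.05 CPM (1.74 ± 0.35, adjusted p = 0.00223). For both genes every hypothalamus-labelled library lay above every whole-brain library, at low levels. NKX2-2, a ventral regulator from forebrain to spinal cord, was at 96.8, 98.6 and 94.8 CPM against 20, 21.4 and 21.8 CPM, and its 3 values within each group were close together (2.2 ± 0.1, adjusted p = 1.04e-06).

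Hypothalamic peptides were split as well. Of 25 tested neuropeptide genes, 5 (20%) were called higher and 9 (36%) lower, against 28.4% and 28.9% of all genes tested. The median log2 difference was -0.13. Without whole-brain library 2, the number called higher was 3. OXT, which encodes mesotocin in birds, was at 0.0812, 0.497 and 0.127 CPM in the hypothalamus-labelled libraries and 8.42, 9.67 and 6.59 CPM in the whole-brain libraries (-5.01 ± 0.46, adjusted p = 2.41e-05). AVP, which encodes vasotocin, was at 14.4, 14.3 and 8.47 CPM against 29.7, 30.2 and 28.1 CPM (-1.25 ± 0.2, adjusted p = 0.000562). CRH, the peptide that starts the stress response of the pituitary, was at 9.34, 11.9 and 6.2 CPM against 37.5, 26 and 29.5 CPM (-1.76 ± 0.24, adjusted p = 0.000206). All 3 genes were lower in every hypothalamus-labelled library than in any whole-brain library, and for OXT the log2 difference was -6.16 without hypothalamus library 2.

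POMC, the precursor of melanocortins, stood at 0.731, 0 and 0.316 CPM in the hypothalamus-labelled libraries and 3.09, 1.25 and 4.94 CPM in the whole-brain libraries and its highest hypothalamus value was below the lowest whole-brain value (log2 difference -3.22 ± 0.79, adjusted p = 0.00614). It was -4.22 without hypothalamus library 1 and -2.59 without library 2. TRH, which drives the thyroid axis, was at 0.975, 1.55 and 0.38 CPM against 1.64, 1.38 and 0.922 CPM, and the groups overlapped (-0.44 ± 0.5, adjusted p = 0.472). NTS, which encodes neurotensin, was at 7.11 ± 1.44 against 84 ± 14.7 CPM (mean ± SD, n = 3 and 3, log2 difference -3.56 ± 0.2, adjusted p = 1.6e-06). The 5 genes called higher were CARTPT, VIP, GRP, PNOC and PRLH, the last 3 named after their values were seen. CARTPT, which encodes the cocaine- and amphetamine-regulated transcript, was at 27.5, 33.3 and 29.5 CPM against 3.15, 2.3 and 1.51 CPM (3.69 ± 0.24, adjusted p = 3.63e-06). VIP, vasoactive intestinal peptide, was at 31.4 ± 4.21 against 11.4 ± 0.408 CPM (1.46 ± 0.15, adjusted p = 3.64e-05). Hypothalamus library 2 was the highest of its group for HCRT and NPVF, which were named after their values were seen. It was also the highest for NKX2-1, OXT, CRH and SIM1, and the lowest for POMC, SIX6 and OTP. HCRT, which encodes the orexins of the lateral hypothalamus, was at 0.812, 7.33 and 0.822 CPM against 2.85, 3.29 and 3.82 CPM and was not called (adjusted p = 0.892). NPVF, the precursor of gonadotropin-inhibitory hormone, was at 0, 1.18 and 0.19 CPM against 5.81, 6.58 and 6.65 CPM (-3.69 ± 0.67, adjusted p = 0.00114). For HCRT library 2 lay above whole brain and the other 2 libraries below it, and for NPVF all 3 lay below. NKX2-1, SIX6, OXT and POMC were thus lower than in whole brain, while OTP, SIM1, NKX2-2 and CARTPT were higher. Which parts of the brain the libraries held was not tested. The 3 libraries are called hypothalamus-labelled throughout.

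**Figure D1:**
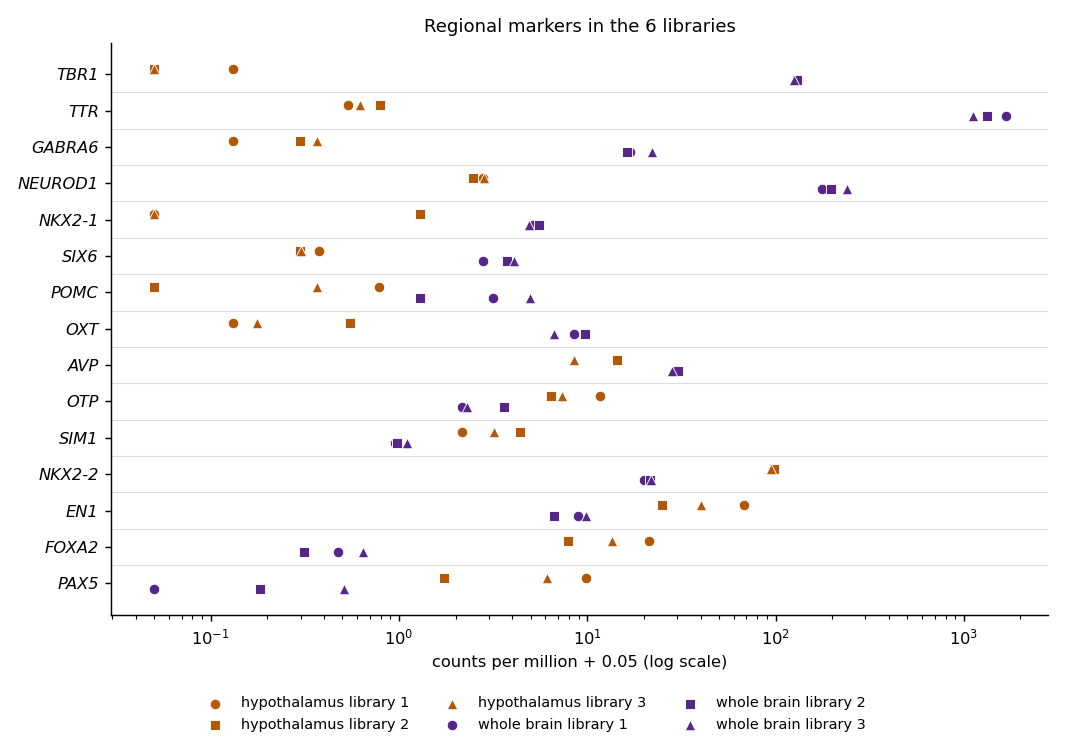
CPM plus 0.05 (log axis) of 15 regional genes in each of the 6 libraries, orange for hypothalamus-labelled and purple for whole-brain libraries, with the symbol giving the library number. TBR1, TTR and NKX2-1 lie to the left in the hypothalamus-labelled libraries, and EN1, FOXA2 and PAX5 lie to the right.

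Genes of the telencephalon made the largest differences. Of 20 tested pallial neuron genes, 17 (85%) were called lower and 2 (10%) higher, against 28.9% and 28.4% of all genes tested. The median log2 difference was -2.91. TBR1 (GRCg7b chromosome 7, 20991498 to 20996892), a T-box factor of pallial glutamatergic neurons, was at 0.0812, 0 and 0 CPM in the hypothalamus-labelled libraries and 132, 130.5 and 125 CPM in the whole-brain libraries. A single read in library 1 was thus all that the hypothalamus-labelled libraries held (log2 difference -12.03 ± 0.29, adjusted p = 1.66e-08), and without that library the fitted difference was -13.98. NEUROD6, a pallial neuron factor, was at 4.22, 5.28 and 3.92 CPM against 135, 138 and 150.3 CPM (-4.97 ± 0.14, adjusted p = 4.45e-08). In both genes the groups were far apart and the 3 values within whole brain were close to each other. The only 2 genes of the list that were called higher were EMX2, at 29.7, 16.5 and 24.8 CPM against 7.39, 6.51 and 10.3 CPM, and CUX2, at 40.8, 30.4 and 28.9 CPM against 23.7, 24.3 and 26.7 CPM, named after their values were seen. Without hypothalamus library 1, or without any 1 of the whole-brain libraries, 1 gene of the list was called higher.

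Subpallial genes were mostly lower too. Of 17 tested interneuron genes, 11 (64.7%) were called lower and 1 (5.88%) higher, against 28.9% and 28.4% of all genes tested. The median log2 difference was -2.08, and 2 genes were called higher without hypothalamus library 1 or 3. LHX6, which in mouse guides interneurons that leave the medial ganglionic eminence, was at 0.325, 2.11 and 0.696 CPM in the hypothalamus-labelled libraries and 26.3, 26.8 and 27.3 CPM in the whole-brain libraries (-4.61 ± 0.4, adjusted p = 1.95e-05). DLX6, a homeobox gene of forebrain GABA neurons, was at 0, 0.994 and 0.19 CPM against 14.4, 11 and 12.1 CPM (-4.86 ± 0.58, adjusted p = 0.000101). In both genes hypothalamus library 2 was the highest of its group and still far below whole brain, and without it the log2 differences were -5.64 for LHX6 and -6.78 for DLX6. GAD1, which makes GABA throughout the brain, was not called (370.3 ± 64.3 against 357 ± 37.3 CPM), and GAD2, a second enzyme for it, was higher (443 ± 49.7 against 286 ± 27.1 CPM, log2 difference 0.63 ± 0.12, adjusted p = 0.00168). Both were named after their values were seen.

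Among 18 tested genes of striatal projection neurons, 9 (50%) were called lower and 3 (16.7%) higher, with a median of -0.57. Over all genes tested the shares were 28.9% and 28.4%. PPP1R1B, which encodes the dopamine signalling protein DARPP-32, was at 3.98, 3.79 and 2.97 CPM in the hypothalamus-labelled libraries and 65.2, 62.2 and 51.6 CPM in the whole-brain libraries (-4.06 ± 0.17, adjusted p = 6.57e-07). DRD1, the D1 dopamine receptor, was at 10.1 ± 2.49 against 51.3 ± 4.88 CPM (-2.34 ± 0.18, adjusted p = 1.12e-05). PENK, the precursor of enkephalins, was not called and its groups overlapped, at 108, 136 and 114 CPM against 113, 112 and 109 CPM.

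Choroid plexus gave another of the largest differences. TTR (GRCg7b chromosome 2, 105791008 to 105800065), the thyroxine carrier that choroid plexus secretes, was at 0.487, 0.746 and 0.569 CPM in the hypothalamus-labelled libraries and 1673, 1336 and 1113 CPM in the whole-brain libraries (log2 difference -11.12 ± 0.26, adjusted p = 1.66e-08). Whole brain held 16892 to 27629 counts per library, and the hypothalamus-labelled libraries held 6 to 12. KCNJ13, a potassium channel of that epithelium, was at 0.162, 0.0621 and 0 CPM against 4.54, 4.34 and 3.49 CPM (-5.75 ± 0.57, or -6.7 without hypothalamus library 1 and -5.15 without library 3), and SLC13A4, a sulfate transporter, at 0.65, 0.621 and 0.949 CPM against 34.2, 22.2 and 30.4 CPM (-5.26 ± 0.26). Of 17 tested genes of the list, 8 (47.1%) were called lower and 3 (17.6%) higher, with a median of -1.03. Over all genes tested the shares were 28.9% and 28.4%. The 3 higher genes were CLDN2, ENPP2 and SLC26A11, named after their values were seen, and ENPP2 is also made by oligodendrocytes.

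The cerebellum list was lower as well, with 16 of 23 tested genes (69.6%) called lower and 2 (8.7%) higher. Over all genes tested the shares were 28.9% and 28.4%. The median log2 difference of the list was -1.13. GABRA6, the GABA-A subunit of granule cells, was at 0.0812, 0.248 and 0.316 CPM in the hypothalamus-labelled libraries and 16.8, 16.2 and 22 CPM in the whole-brain libraries (-6.3 ± 0.33, adjusted p = 1.36e-06). NEUROD1, a factor of granule cells and of other excitatory neurons, was at 2.76, 2.42 and 2.78 CPM against 176, 197 and 239.8 CPM (-6.26 ± 0.17, adjusted p = 3.36e-08). CALB1, the calcium buffer of Purkinje cells and other neurons, was at 13.3 ± 0.655 against 107 ± 5.46 CPM (-3.01 ± 0.11, adjusted p = 2.77e-07). The whole-brain libraries did not overlap with the hypothalamus-labelled ones in any of these genes. FAT2, an atypical cadherin of granule cells and among the 15 largest lower differences, was at 2.35, 1.62 and 0.885 CPM against 69.5, 94.6 and 114 CPM (-5.87 ± 0.3).

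**Figure D2:**
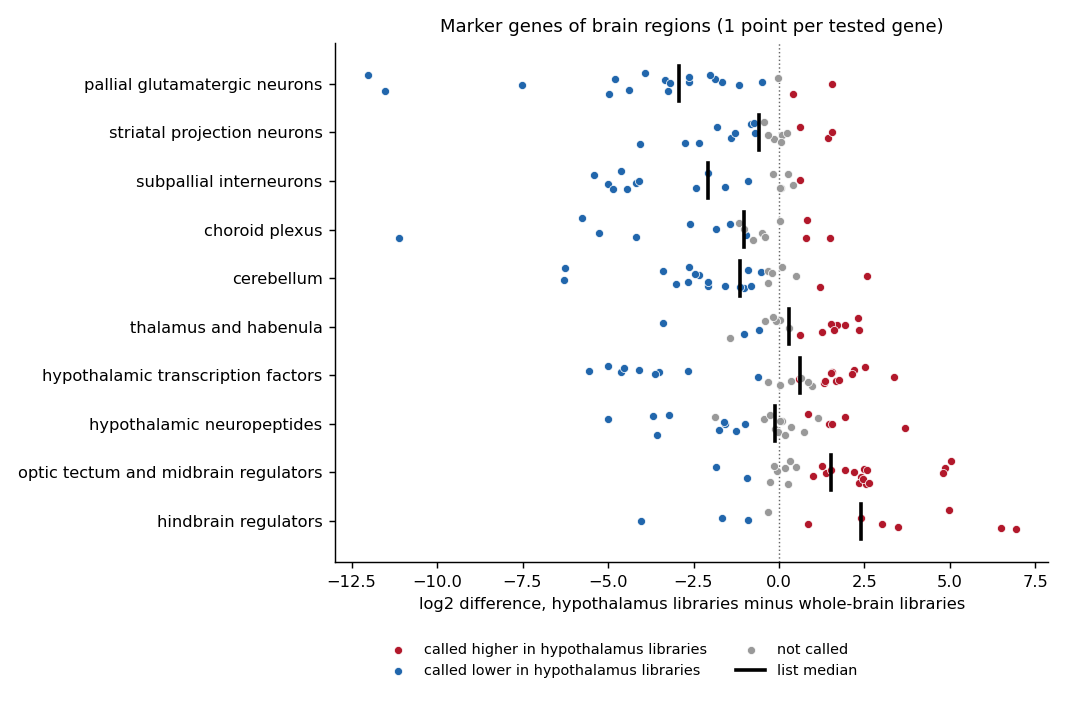
Log2 difference of each tested gene in 10 lists of regional genes, coloured by call at an edgeR adjusted p below 0.05, with the list median as a black bar. The median is -2.91 for pallial neurons and 1.53 for optic tectum and midbrain, the points for hindbrain are 11 of 25 genes found, and the hypothalamic lists have points on both sides of 0.

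Regulators of the midbrain lay mostly on the other side. Of 25 tested genes of optic tectum and midbrain, 16 (64%) were called higher and 2 (8%) lower, and the median log2 difference was 1.53. Over all genes tested the shares were 28.4% and 28.9%. EN1, the engrailed factor of the midbrain-hindbrain border, was at 67.9, 24.8 and 40 CPM in the hypothalamus-labelled libraries and 8.9, 6.58 and 9.81 CPM in the whole-brain libraries (2.38 ± 0.33, adjusted p = 0.000267). FOXA2, a factor of floor plate and of midbrain dopamine neurons, was at 21.3, 7.89 and 13.5 CPM against 0.424, 0.263 and 0.593 CPM (5.03 ± 0.46, adjusted p = 2.32e-05). PAX5, which acts at the same border, was at 9.75, 1.68 and 6.07 CPM against 0, 0.132 and 0.461 CPM (4.85 ± 0.86, adjusted p = 0.00103). In all 3 genes library 1 was the highest and library 2 the lowest of the hypothalamus-labelled libraries, and the groups did not overlap. For PAX5 the log2 difference was 4.24 without whole-brain library 1 and 6.33 without whole-brain library 3.

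GATA3, TAL1 and LHX5, factors of midbrain and rhombomere GABA neurons among other sites, had log2 differences of 2.56 ± 0.26, 2.5 ± 0.16 and 2.57 ± 0.22, with adjusted p-values of 3.79e-05, 3.48e-06 and 1.66e-05. PAX7, a factor of dorsal midbrain that was named after its values were seen, was not called, at 14.7, 8.64 and 5.88 CPM against 9.57, 9.27 and 11.3 CPM. TFAP2D, expressed in the dorsal midbrain in mouse, was lower, at 12.8 ± 2.31 against 46 ± 1.71 CPM (-1.84 ± 0.15, adjusted p = 1.32e-05). The 2 genes of the list that were called lower were TFAP2D and DMBX1, and 1 gene was called lower without hypothalamus library 1, hypothalamus library 3 or whole-brain library 1.

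The hindbrain list was thin in reads. Of its 25 genes found, 11 passed the count filter. Of these, 7 (63.6%) were called higher and 3 (27.3%) lower, against 28.4% and 28.9% of all genes tested. A gene of low counts could pass the filter through the group where it is high, so these calls do not describe the whole list. NKX6-2, a factor of ventral hindbrain and of oligodendrocytes, was higher with a log2 difference of 3.0 ± 0.16 (adjusted p = 1.36e-06). Of the HOX genes of more posterior identity that were found, HOXA5, HOXB4, HOXB5, HOXB6 and HOXB8 had 0 counts in all 6 libraries. HOXB7, named after its values were seen, was at 3.65, 2.55 and 3.16 CPM in the hypothalamus-labelled libraries and 1.94, 1.58 and 1.65 CPM in the whole-brain libraries (0.85 ± 0.28, adjusted p = 0.0274). LBX1, a factor of dorsal hindbrain neurons, was lower, at 0.244, 0.248 and 0.0633 CPM against 2.79, 2.83 and 3.62 CPM (-4.02 ± 0.46, adjusted p = 7.81e-05).

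In the list of thalamus and habenula, 8 of 17 tested genes (47.1%) were called higher and 3 (17.6%) lower, with a median of 0.29. Over all genes tested the shares were 28.4% and 28.9%. CALB2, which encodes calretinin, was at 454, 393 and 360.4 CPM in the hypothalamus-labelled libraries and 95, 67.1 and 79.2 CPM in the whole-brain libraries (2.32 ± 0.15, adjusted p = 3.66e-06). IRX1 and IRX2, Iroquois factors of diencephalon and midbrain, had log2 differences of 1.26 ± 0.16 and 1.61 ± 0.14 (adjusted p = 0.000125 and 2.1e-05). RORA, a nuclear receptor of thalamus and cerebellum, was lower, at 2.44, 2.36 and 1.46 CPM against 18.6, 24.7 and 21.9 CPM (-3.38 ± 0.23, adjusted p = 5.15e-06). GBX2, which patterns the thalamus and was named after its values were seen, was at 0.731, 7.21 and 1.14 CPM against 8.72, 9.14 and 7.38 CPM and was not called (adjusted p = 0.077). Its value in hypothalamus library 2 was close to whole brain while those of libraries 1 and 3 were far below.

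Genes of monoamine neurons were mostly higher, and several varied widely within the group. Serotonin is made in the raphe nuclei of the brainstem in birds, and also in some hypothalamic cells. Of 13 tested genes of serotonin neurons, 10 (76.9%) were called higher and 2 (15.4%), MAOB and CRHBP, lower. Over all genes tested the shares were 28.4% and 28.9%. The median log2 difference of the list was 2.10. FEV, a factor that defines serotonin neurons, had 0 counts in all 6 libraries. Summed over the list, levels were 868, 291 and 428 CPM in the hypothalamus-labelled libraries and 250.2, 242 and 237 CPM in the whole-brain libraries. TPH2 (GRCg7b chromosome 1, 36621601 to 36696672), the enzyme that starts serotonin synthesis in neurons, was at 81, 4.29 and 26.6 CPM in the hypothalamus-labelled libraries and 12.1, 9.34 and 7.05 CPM in the whole-brain libraries. Library 1 was thus far above whole brain, library 3 was above it, and library 2 was below all 3 whole-brain libraries. The log2 difference was 1.96 ± 0.75 (adjusted p = 0.048), and without hypothalamus library 1 it was 0.72 (edgeR adjusted p = 0.35). TPH2 was not called in 13 of the 22 alternatives.

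SLC6A4, the serotonin transporter, had the same order of libraries, at 171, 6.96 and 52.9 CPM in the hypothalamus-labelled libraries and 10.1, 9.4 and 6.32 CPM in the whole-brain libraries (3.15 ± 0.85, adjusted p = 0.0102). Without library 1 its log2 difference was 1.81 (edgeR adjusted p = 0.0498), and it was not called in 4 of the 22 alternatives. In the reads recovered from the FPKM column of library 1, TPH2 stood at 89.9 and SLC6A4 at 274.6 RPM (reads relative to the total of the column), against 74.8 and 157.7 in its deposited counts. DDC, which makes the final step to serotonin and dopamine, was at 148, 26.8 and 57.1 CPM against 9.45, 8.61 and 8.5 CPM (3.12 ± 0.52, adjusted p = 0.000759), and all 3 libraries lay above whole brain. Without library 1 the log2 difference of DDC was 2.26 (edgeR adjusted p = 0.000418). GCH1, which makes the cofactor of both hydroxylases, was at 68.1, 30.2 and 36.2 CPM against 7.33, 7.23 and 7.44 CPM (2.61 ± 0.29, adjusted p = 6.44e-05). The part that the makeup of library 1 had in these differences was not tested.

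Catecholamine genes went with them, but DDC, SLC18A2 and LMX1B were members of both lists, so the lists are not independent. Of 16 tested genes of dopamine and noradrenaline neurons, 12 (75%) were called higher and 0 lower, with a median of 1.55. Over all genes tested the shares were 28.4% and 28.9%. Summed levels were 814, 380.5 and 490.5 CPM in the hypothalamus-labelled libraries and 259, 261 and 216 CPM in the whole-brain libraries. TH, the enzyme that starts catecholamine synthesis, was at 74.5, 14.5 and 16.2 CPM in the hypothalamus-labelled libraries and 3.69, 2.76 and 3.36 CPM in the whole-brain libraries (3.41 ± 0.62, adjusted p = 0.00118). The value of library 1 was far above those of libraries 2 and 3, and all 3 were above whole brain. Without library 1 the log2 difference of TH was 2.25 (edgeR adjusted p = 8.15e-05). DBH, which turns dopamine into noradrenaline and was named after its values were seen, was at 3.65, 0.435 and 9.17 CPM against 1.7, 0.855 and 0.132 CPM and was not called (adjusted p = 0.059). In the reads recovered from the FPKM column of library 1, DBH stood at 14.3 RPM, against 3.38 in its deposited counts. RET, the receptor of the GDNF family, and MAOA, which degrades monoamines, were higher at 114 ± 37.4 against 41.5 ± 2.57 CPM and 47.9 ± 5.07 against 19.1 ± 3.46 CPM, with log2 differences of 1.45 ± 0.21 and 1.32 ± 0.16.

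Genes of acetylcholine neurons were mostly higher. Of 13 tested genes of cholinergic and motor neurons, 9 (69.2%) were called higher and 1 (7.69%) lower (median 1.44). Over all genes tested the shares were 28.4% and 28.9%. Without hypothalamus library 3, 2 genes of the list were called lower. CHAT, which makes acetylcholine, was at 26.1, 17.5 and 35.2 CPM in the hypothalamus-labelled libraries and 2.3, 2.5 and 2.63 CPM in the whole-brain libraries (3.4 ± 0.27, adjusted p = 1.16e-05). SLC18A3, its vesicle transporter, was at 110.4, 41.9 and 88.9 CPM against 8.6, 7.89 and 9.48 CPM (3.21 ± 0.32, adjusted p = 3.49e-05). LHX4, a factor of motor neurons, pineal and pituitary, was at 23.7, 8.39 and 12.2 CPM against 0.787, 0.526 and 0.329 CPM (4.71 ± 0.48, adjusted p = 3.93e-05). Motor neuron gene MNX1 had 0 counts in all 6 libraries. SLC10A4, a vesicle protein of cholinergic and monoamine neurons, was at 119.8, 17.5 and 44 CPM against 3.69, 3.02 and 4.28 CPM (4.03 ± 0.62, adjusted p = 0.000469). For SLC10A4, as for the serotonin genes, library 1 was the highest and library 2 the lowest of its group, and without library 1 the log2 difference was 3.08.

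**Figure D3:**
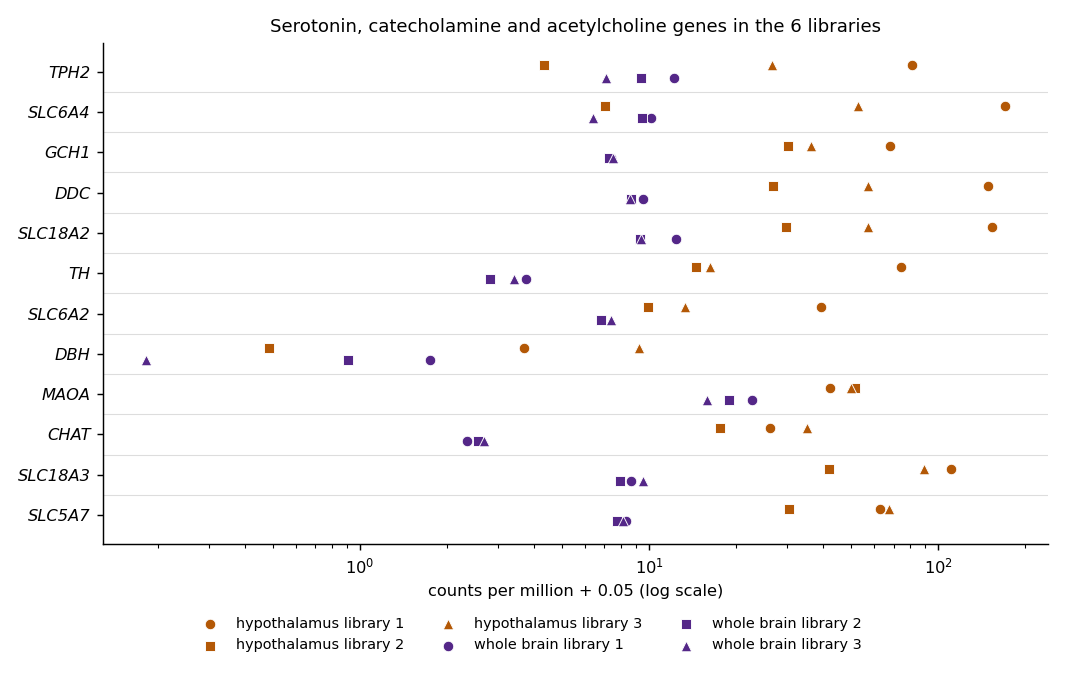
CPM plus 0.05 (log axis) of 12 genes of serotonin, catecholamine and acetylcholine neurons in each library. Hypothalamus library 1 is the farthest right for TPH2, SLC6A4, DDC, SLC18A2 and TH, and hypothalamus library 2 lies among the whole-brain libraries for SLC6A4 and below them for TPH2.

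Tissue next to the hypothalamus was looked for by its hormones. Of 15 pituitary genes found, 8 were tested, and 2 (25%) were called higher and 1 (12.5%) lower. Over all genes tested the shares were 28.4% and 28.9%. Growth hormone, prolactin, TSHB, FSHB and CGA did not pass the count filter, and no hypothalamus-labelled library exceeded 1.3 CPM for any of them. PITX1 was among the higher genes, and POMC was the lower one. Without hypothalamus library 1, 3 genes of the list were called lower, and 2 without hypothalamus library 2, hypothalamus library 3 or whole-brain library 3. Of 13 pineal and photoreceptor genes found, 7 were tested, with 3 (42.9%) called higher and 1 (14.3%) lower. As in the hindbrain list, low genes could pass the filter through the group where they are high. The calls thus do not describe the whole pituitary or pineal list. PDC, a photoreceptor protein, was at 0, 0 and 0.0633 CPM in the hypothalamus-labelled libraries and 2.18, 1.38 and 2.44 CPM in the whole-brain libraries (-6.03 ± 0.77, or -7.91 without hypothalamus library 3), and ASMT, which makes melatonin, had 0 counts in the hypothalamus-labelled libraries.

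Myelin genes were the most uniform group. Of 22 tested genes of oligodendrocytes, 19 (86.4%) were called higher and 0 lower, with a median log2 difference of 2.01. Over all genes tested the shares were 28.4% and 28.9%. Summed levels were 20818 to 32482 CPM in the hypothalamus-labelled libraries and 4514 to 5763 CPM in the whole-brain libraries. MBP, a structural protein of myelin, was at 7505, 5665 and 7026 CPM in the hypothalamus-labelled libraries and 1759, 2180.5 and 1513 CPM in the whole-brain libraries (1.89 ± 0.18, adjusted p = 2.91e-05). PLLP, a membrane protein of myelin, was at 132, 61.7 and 91.7 CPM against 5.81, 4.87 and 5.33 CPM (4.15 ± 0.27, adjusted p = 4.13e-06). NKX6-2, a factor of oligodendrocytes, was at 39.3, 33.7 and 39.9 CPM against 4.24, 5.33 and 4.54 CPM (3.0 ± 0.16, adjusted p = 1.36e-06).

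Factors of the lineage were higher along with the myelin proteins. OLIG2 was at 425 ± 63.9 against 97.7 ± 5.75 CPM and SOX10 at 252 ± 43.5 against 50.8 ± 8.49 CPM, with log2 differences of 2.12 ± 0.13 and 2.31 ± 0.16. PDGFRA, the receptor of oligodendrocyte precursors, was not called and its groups overlapped, at 151, 215 and 179 CPM against 155, 152 and 138 CPM. Scaled to gene length, MBP averaged 408 CPM per kb against 110.1 CPM per kb. Hypothalamus library 1 had the highest summed level of the list, and without it 20 genes were called higher.

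Genes of thick axons were mostly higher as well. Of 17 tested genes, 12 (70.6%) were called higher and 2 (11.8%) lower, with a median of 1.44. Over all genes tested the shares were 28.4% and 28.9%. NEFL, the light neurofilament chain, was at 2532, 1713 and 2011 CPM in the hypothalamus-labelled libraries and 481, 492 and 503 CPM in the whole-brain libraries (2.08 ± 0.16, adjusted p = 8.29e-06). SNCG, gamma-synuclein, was at 380.2, 302 and 306 CPM against 63, 62.2 and 57.7 CPM (2.43 ± 0.12, adjusted p = 1.22e-06). SCN4B, a sodium channel subunit, was at 15.1, 9.07 and 9.61 CPM against 1.15, 1.12 and 1.51 CPM (3.15 ± 0.29, adjusted p = 2.41e-05). The groups did not overlap in any of the 3. PVALB and GAP43 were the 2 lower genes: PVALB, a calcium buffer of fast neurons, was at 28.9 ± 2.33 against 122 ± 13.4 CPM and GAP43, a protein of growing axons, at 159.9 ± 13.7 against 484 ± 32.4 CPM (log2 differences -2.08 ± 0.12 and -1.6 ± 0.11).

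**Figure D4:**
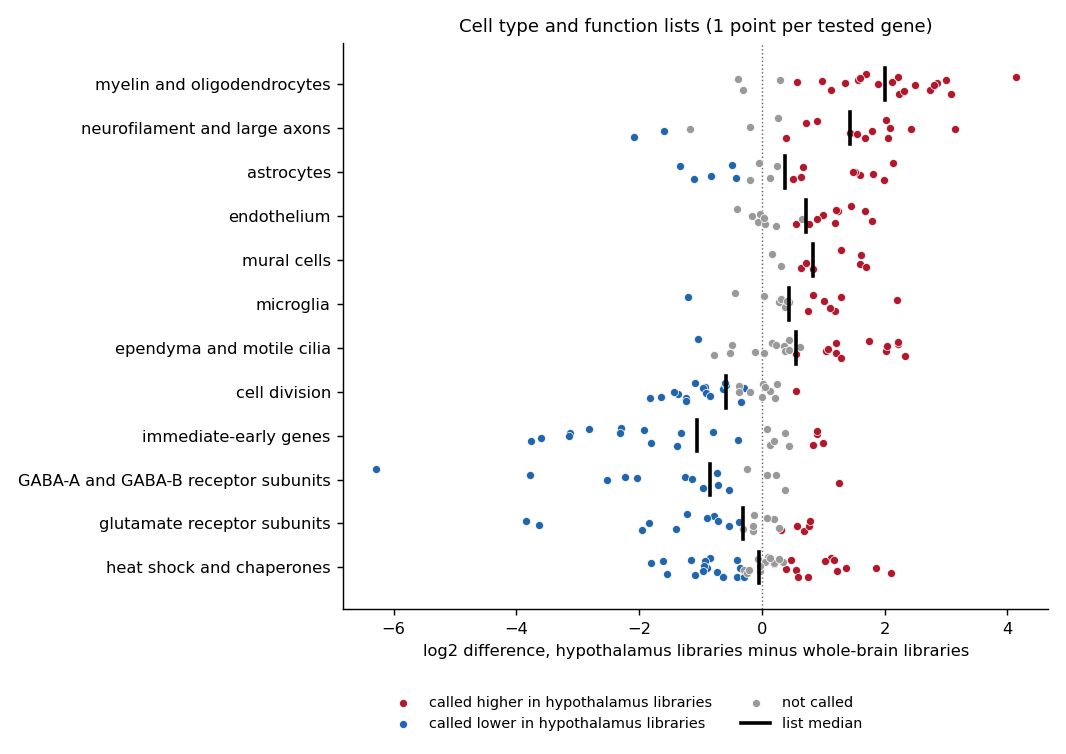
Log2 difference of each tested gene in 12 lists of cell types and functions, coloured by call at an edgeR adjusted p below 0.05, with the list median as a black bar. No gene of the myelin, endothelium or mural lists was called lower, and the medians of immediate-early genes and GABA receptor subunits lie below 0.

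Astrocyte genes were divided. Of 18 tested, 9 (50%) were called higher and 5 (27.8%) lower, against 28.4% and 28.9% of all genes tested. The share called lower was near that of all genes. Without whole-brain library 1, 3 were called lower. AGT, angiotensinogen, was at 339.9, 303 and 283 CPM in the hypothalamus-labelled libraries and 73, 100.2 and 58.4 CPM in the whole-brain libraries (2.0 ± 0.18, adjusted p = 2.39e-05), and CLU, clusterin, at 709.9 ± 106 against 247 ± 32.5 CPM (1.52 ± 0.14). GFAP, the filament of astrocytes, was named after its values were seen and stood at 1244, 624 and 621 CPM against 209, 162 and 194 CPM (2.14 ± 0.26, adjusted p = 0.000119). FABP7, a fatty acid binding protein of radial glia and young astrocytes, was lower, at 212 ± 16.8 against 537 ± 55.3 CPM (-1.34 ± 0.12, adjusted p = 1.95e-05). Both directions were thus found among genes of a single cell type.

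Vessel genes were mostly higher. Of 18 tested endothelial genes, 10 (55.6%) were called higher and 0 lower (median 0.71). Of 9 mural genes, 7 (77.8%) were called higher and 0 lower (median 0.84). Over all genes tested the shares were 28.4% and 28.9%. CLDN5, the tight junction protein of brain endothelium, was at 52.1, 57.2 and 48.1 CPM in the hypothalamus-labelled libraries and 20.3, 16.6 and 20.4 CPM in the whole-brain libraries (1.46 ± 0.13, adjusted p = 2.39e-05). PDGFRB, the receptor of pericytes, was at 105, 93.6 and 102 CPM against 37.2, 41.6 and 43.8 CPM (1.29 ± 0.11, adjusted p = 1.36e-05). Haemoglobin genes HBA1 and HBBA, a measure of blood, were not called, at 141 ± 50.4 against 162 ± 84.1 CPM and 33.4 ± 7.46 against 54.2 ± 31.2 CPM, and whole-brain library 3 was the highest for both. HBBA was called lower in 3 of the 22 alternatives. These were the replicate number as a block, W-linked expression as a covariate, and leaving out whole-brain library 1 (-0.97, edgeR adjusted p = 0.0297). Of 7 tested genes of red blood cells, 2 (28.6%) were called higher and 1 (14.3%) lower, against 28.4% and 28.9% of all genes tested. Left out in turn, hypothalamus library 3 gave 2 higher and 0 lower, whole-brain library 1 gave 1 and 2, and whole-brain library 2 gave 1 and 0.

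Microglia and motile cilia varied between the hypothalamus-labelled libraries. Of 15 tested microglia genes, 7 (46.7%) were called higher and 1 (6.67%) lower, against 28.4% and 28.9% of all genes tested. Without whole-brain library 2, 0 were called lower and 5 higher. The summed levels were 148, 242 and 234 CPM in the hypothalamus-labelled libraries and 121, 120.0 and 104 CPM in the whole-brain libraries. CSF1R, the growth factor receptor of microglia, was at 42.2, 74.7 and 77.2 CPM in the hypothalamus-labelled libraries and 28.9, 29.9 and 26.4 CPM in the whole-brain libraries (1.19 ± 0.21, adjusted p = 0.000965). In ependyma and motile cilia, 12 of 25 tested genes (48%) were called higher and 1 (4%) lower, with a median of 0.55. HYDIN, a protein of the ciliary axoneme, was at 53.3, 83.2 and 65.7 CPM against 17, 13 and 13.2 CPM (2.22 ± 0.19, adjusted p = 1.47e-05), and CFAP65, another ciliary protein, at 26.5, 43.1 and 48.4 CPM against 6.6, 9.34 and 7.44 CPM (2.34 ± 0.24). Library 1 was the lowest of its group in all 3 genes, and without it 9 microglia and 18 cilia genes were called higher. The cilia genes called lower were 2 without hypothalamus library 2 and 0 without whole-brain library 1. In the reads recovered from the FPKM column of library 1, CSF1R stood at 80.2 and HYDIN at 84.1 RPM, against 39 and 49.2 in its deposited counts.

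Among 19 tested genes of meninges and fibrillar collagen, 7 (36.8%) were called lower and 3 (15.8%) higher. Over all genes tested the shares were 28.9% and 28.4%. Without hypothalamus library 1, 6 genes of the list were called higher. PTGDS, the prostaglandin D synthase of meninges and choroid plexus, was at 10.3, 14.9 and 6.51 CPM in the hypothalamus-labelled libraries and 251, 177 and 152 CPM in the whole-brain libraries (-4.19 ± 0.29, adjusted p = 5.92e-06). ALDH1A2, which makes retinoic acid in the meninges, was at 6.9, 12.7 and 14 CPM against 71, 69.9 and 59.1 CPM (-2.56 ± 0.23, adjusted p = 2.08e-05). COL1A1, a fibrillar collagen, was higher, at 342 ± 56.3 against 178 ± 27.8 CPM (0.95 ± 0.16, adjusted p = 0.000674).

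Genes of dividing cells were mostly lower, and those of progenitors and young neurons lay in both directions. Of 26 tested genes of cell division, 16 (61.5%) were called lower and 1 (3.85%) higher, against 28.9% and 28.4% of all genes tested. The median was -0.59, and 2 genes were called higher without hypothalamus library 1. CENPF, a kinetochore protein of dividing cells, was at 3.25, 4.16 and 6.83 CPM in the hypothalamus-labelled libraries and 14.5, 17.6 and 19.1 CPM in the whole-brain libraries (-1.83 ± 0.26, adjusted p = 0.000301), and CCNA2, cyclin A2, at 29.6 ± 3.13 against 63.1 ± 3.11 CPM (-1.09 ± 0.12). DCX, doublecortin of migrating neurons, was at 15.1, 7.58 and 5.25 CPM against 156, 151 and 149.5 CPM (-4.05 ± 0.3, adjusted p = 8.57e-06). SOX11, a factor of immature neurons, was at 37.7 ± 3.79 against 131 ± 18.6 CPM (-1.8 ± 0.13), and NOTCH1, a receptor that maintains progenitors, was higher at 238 ± 23 against 78.5 ± 6.27 CPM (1.6 ± 0.11). In the list of progenitors and immature neurons, 6 (31.6%) of 19 tested genes were called higher and 7 (36.8%) lower. Its median was -0.22, and the shares of all genes tested were 28.4% and 28.9%.

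Receptor subunits for GABA were mostly lower, and those for glutamate lay in both directions. Of 16 tested GABA receptor subunits, 11 (68.8%) were called lower and 1 (6.25%) higher, against 28.9% and 28.4% of all genes tested. The median was -0.84, and 2 genes were called higher without hypothalamus library 1 or whole-brain library 2. Beside GABRA6, GABRD, a subunit of receptors outside synapses, was at 1.95, 3.48 and 3.23 CPM in the hypothalamus-labelled libraries and 35.4, 47.5 and 37.4 CPM in the whole-brain libraries (-3.77 ± 0.22, adjusted p = 2.31e-06). GABRA5 and GABRA4, other alpha subunits, were at 16.4 ± 2.05 against 94.1 ± 7.22 CPM and 14.5 ± 2.34 against 67.8 ± 6.99 CPM, with log2 differences of -2.52 ± 0.13 and -2.23 ± 0.15. Of 23 tested glutamate receptor subunits, 11 (47.8%) were called lower and 5 (21.7%) higher, with a median of -0.31. Over all genes tested the shares were 28.9% and 28.4%. GRIN2A, an NMDA receptor subunit that increases with maturation in rodents, was at 7.15, 5.41 and 4.62 CPM against 82, 94.6 and 67.7 CPM (-3.84 ± 0.19, adjusted p = 1.22e-06), and GRM2, a presynaptic metabotropic receptor, at 4.16 ± 0.964 against 51.3 ± 2.54 CPM (-3.64 ± 0.18). The number of glutamate receptor subunits called higher was 2 without whole-brain library 1 or 2, and 3 without whole-brain library 3 or hypothalamus library 3.

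Genes of glycine transmission, a system of brainstem and spinal cord, included GLRA1, the alpha1 subunit of the adult glycine receptor. It was at 62.5, 49 and 47.6 CPM in the hypothalamus-labelled libraries and 6.48, 4.47 and 5.73 CPM in the whole-brain libraries, with the groups far apart (3.25 ± 0.18, adjusted p = 1.74e-06). SLC6A9, the glycine transporter of astrocytes, was at 906, 468 and 493 CPM against 199, 176 and 198 CPM (1.71 ± 0.23, adjusted p = 0.000224). SLC6A5, the neuronal glycine transporter, was below the count filter and at most 0.975 CPM in any library. GLRB, the beta subunit, was lower at 109.9 ± 9.82 against 189 ± 14.3 CPM (-0.78 ± 0.11). In the list, 5 (45.5%) of 11 tested genes were called higher and 3 (27.3%) lower, against 28.4% and 28.9% of all genes tested.

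Ion channels lay in both directions. Of 24 tested sodium and calcium channel genes, 6 (25%) were called higher and 11 (45.8%) lower. Of 40 potassium and HCN channel genes, 13 (32.5%) were called higher and 16 (40%) lower. Over all genes tested the shares were 28.4% and 28.9%. KCNJ4, an inward rectifier of forebrain neurons, was at 2.19, 0.746 and 1.71 CPM in the hypothalamus-labelled libraries and 37.2, 46.8 and 33.6 CPM in the whole-brain libraries (-4.69 ± 0.3, adjusted p = 3.59e-06). SCN3A, the sodium channel of embryonic neurons in rodents, was at 78.8 ± 2.37 against 257 ± 19.8 CPM (-1.71 ± 0.1).

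Immediate-early genes, which neurons switch on with activity, were mostly lower. Of 22 tested, 13 (59.1%) were called lower and 4 (18.2%) higher, against 28.9% and 28.4% of all genes tested. The median was -1.06, and 2 genes were called higher without whole-brain library 3. EGR3 was at 4.87, 4.66 and 4.55 CPM in the hypothalamus-labelled libraries and 66.5, 66.2 and 58.6 CPM in the whole-brain libraries (-3.76 ± 0.13, adjusted p = 2.77e-07), and ARC, a synaptic protein, at 8.61, 7.02 and 6.01 CPM against 63.9, 71.7 and 52.6 CPM (-3.13 ± 0.18, adjusted p = 1.86e-06). Values within each group were close together for both. Among 17 tested clock genes, 12 (70.6%) were called lower and 2 (11.8%) higher, with a median of -0.60. NPAS2, a paralogue of CLOCK, was at 18.2 ± 1.7 against 38.5 ± 1.68 CPM (-1.08 ± 0.13), and BHLHE41, a repressor of the clock, was higher at 17.7 ± 3.29 against 3.8 ± 0.722 CPM (2.21 ± 0.22).

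Heat shock genes were examined because all embryos had been kept warm, and they showed no common direction between the tissues. Of 42 tested chaperone genes, 12 (28.6%) were called higher and 16 (38.1%) lower, against 28.4% and 28.9% of all genes tested. Their median was -0.05. HSPB9, a small heat shock protein, was at 25.2, 22.4 and 27.1 CPM in the hypothalamus-labelled libraries and 6.18, 4.47 and 6.72 CPM in the whole-brain libraries (2.1 ± 0.18, adjusted p = 1.95e-05). HSPA2, an HSP70, was at 256, 279 and 335 CPM against 187, 172 and 159 CPM (0.75 ± 0.12, adjusted p = 0.000735). BAG3, a partner of HSP70, and CRYAB, alphaB-crystallin, which oligodendrocytes also make, were higher with log2 differences of 1.13 ± 0.13 and 1.37 ± 0.11. HSP90AB1, the constitutive HSP90, was lower at 103, 74.8 and 64.8 CPM against 263, 248 and 339 CPM (-1.81 ± 0.18, adjusted p = 4.21e-05). HSP90AA1, the inducible HSP90, was not called, at 2750.3, 2895 and 3334 CPM against 3108, 3130.3 and 2464 CPM (0.04 ± 0.15, adjusted p = 0.808), and its groups overlapped.

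Channels that sense temperature and irritants in other tissues were mixed. Of 18 tested TRP channel genes, 4 (22.2%) were called higher and 6 (33.3%) lower, against 28.4% and 28.9% of all genes tested. TRPM2, which acts as a warmth sensor in the mouse hypothalamus, was at 541, 338 and 373 CPM in the hypothalamus-labelled libraries and 138, 134 and 119 CPM in the whole-brain libraries (1.68 ± 0.17, adjusted p = 4.32e-05). TRPV4, another warmth-sensitive channel, was below the count filter and at most 0.38 CPM.

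In the thyroid hormone list 6 (37.5%) of 16 tested genes were called higher and 5 (31.2%) lower, against 28.4% and 28.9% of all genes. Without hypothalamus library 3 or whole-brain library 2, 3 were called lower. Beside TTR, SLCO1C1, a thyroxine transporter, was at 0, 0.124 and 0.127 CPM in the hypothalamus-labelled libraries and 2.06, 6.12 and 6.85 CPM in the whole-brain libraries (-5.67 ± 0.72, adjusted p = 0.000133). TRHR, the receptor of TRH, was higher at 3.25, 4.22 and 2.21 CPM against 0.848, 0.789 and 1.12 CPM (1.81 ± 0.36, adjusted p = 0.00188). In the stress and steroid list, 6 (33.3%) of 18 tested genes were called higher and 7 (38.9%) lower. CRHR2, a receptor of CRH and urocortins, was at 7.88, 7.02 and 4.74 CPM against 49.3, 46.9 and 38.7 CPM (-2.78 ± 0.2, adjusted p = 6.46e-06). UCN, urocortin, a peptide strongest in the Edinger-Westphal region of the midbrain in mammals, was at 2.6, 2.3 and 1.64 CPM against 0.121, 0.197 and 0.132 CPM (3.79 ± 0.46, adjusted p = 9.97e-05).

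Receptors for feeding signals were called higher in 6 (23.1%) and lower in 7 (26.9%) of 26 tested genes, near the 28.4% and 28.9% of all genes. BRS3, an orphan bombesin receptor tied to energy balance in mouse, was at 0, 0.248 and 0 CPM in the hypothalamus-labelled libraries and 15.1, 16 and 11.7 CPM in the whole-brain libraries (-7.19 ± 0.54, adjusted p = 8.31e-06). Without hypothalamus library 2, which held all its reads in the group, the fitted difference was -10.75, and without library 3 it was -6.58. MC4R, the melanocortin receptor that restrains feeding, was higher, at 8.12, 6.77 and 8.29 CPM against 3.75, 3.42 and 3.62 CPM (1.1 ± 0.2, adjusted p = 0.0014). CNR1, the cannabinoid receptor, was at 204 ± 8.91 against 449 ± 14.8 CPM (-1.14 ± 0.1).

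Axon guidance genes were called higher in 16 (37.2%) and lower in 12 (27.9%) of 43 tested. Cadherins were called higher in 8 (28.6%) and lower in 11 (39.3%) of 28. Over all genes tested the shares were 28.4% and 28.9%. EPHA3, an ephrin receptor that maps retinal axons onto the chick tectum, was at 42.6, 51.1 and 55.1 CPM in the hypothalamus-labelled libraries and 283, 294 and 240.4 CPM in the whole-brain libraries (-2.45 ± 0.13, adjusted p = 1.49e-06). SEMA3A, a repulsive cue, was at 14.3 ± 1.13 against 56.2 ± 6.92 CPM (-1.98 ± 0.14). PCDH17, a protocadherin, and CDH19, a cadherin of glia, were higher, at 281 ± 31.6 against 118 ± 2.63 CPM and 35.8 ± 4.66 against 6.7 ± 0.936 CPM (log2 differences 1.25 ± 0.11 and 2.42 ± 0.17). The cadherins called lower were 6 or 7 without hypothalamus library 2, whole-brain library 1 or whole-brain library 2.

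Of 23 tested genes of glycolysis and the hypoxia response, 10 (43.5%) were called higher and 4 (17.4%) lower. Over all genes tested the shares were 28.4% and 28.9%. Without whole-brain library 3, 6 genes of the list were called higher. ENO2, the neuronal enolase, was at 1456, 1088 and 1147 CPM in the hypothalamus-labelled libraries and 419, 419 and 381 CPM in the whole-brain libraries (1.6 ± 0.14, adjusted p = 1.68e-05), and PFKL, phosphofructokinase of liver type, at 388 ± 89.9 against 145 ± 16.3 CPM (1.42 ± 0.16). PDK1, which holds pyruvate back from mitochondria, was lower at 68.7 ± 7.39 against 141 ± 14.2 CPM (-1.04 ± 0.12). Cholesterol synthesis genes went both ways, with 5 of 18 (27.8%) called higher and 4 (22.2%) lower, against 28.4% and 28.9% of all genes. Without hypothalamus library 3 or whole-brain library 2, 2 were called lower. MVK, mevalonate kinase, was at 126 ± 24.3 against 46.9 ± 4.66 CPM (1.42 ± 0.15) and MSMO1, a methylsterol oxidase, at 150.4 ± 11.9 against 322 ± 54.5 CPM (-1.1 ± 0.14).

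Of the 13 protein-coding genes of the mitochondrial genome, 4 (30.8%) were called lower and 0 higher, against 28.9% and 28.4% of all genes tested. ND6 lies on the strand opposite to the other genes, and no source used here says whether counting used strand. It was at 113, 91 and 93.3 CPM in the hypothalamus-labelled libraries and 622, 372 and 637 CPM in the whole-brain libraries (-2.46 ± 0.2, adjusted p = 1.45e-05). For ND1, another subunit of complex I, library 2 was the lowest, at 5184, 2555 and 4108 CPM against 4881, 5909.5 and 6183 CPM, and the gene was not called (adjusted p = 0.0845). It was called lower without hypothalamus library 1 (-0.74, edgeR adjusted p = 0.0158) and with the reads recovered from that library's FPKM column (-0.77). Without whole-brain library 2 or 3, 1 gene of this group was called lower. Genes of the interferon response were called higher in 7 (41.2%) and lower in 1 (5.88%) of 17 tested, with 2 lower without hypothalamus library 2. Over all genes tested the shares were 28.4% and 28.9%. STAT2, a factor of that response, was at 37.1 ± 7.17 against 14.6 ± 2.3 CPM (1.35 ± 0.18), B2M, a light chain of the class I complex, at 69.9 ± 9.49 against 35.4 ± 5.79 CPM (0.98 ± 0.15), and the lower gene was EIF2AK2, a kinase that senses double-stranded RNA (-0.79 ± 0.19).

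Among the largest differences outside the lists, SHISA3, a membrane protein, was at 299.8, 205 and 247 CPM in the hypothalamus-labelled libraries and 19.2, 20.5 and 20.4 CPM in the whole-brain libraries (3.64 ± 0.15, adjusted p = 6.57e-07). SYT2, the fast synaptotagmin of brainstem and spinal synapses, was at 401, 285 and 271 CPM against 36.1, 28.7 and 31.7 CPM (3.31 ± 0.17, adjusted p = 1.38e-06). ADAMTS4, a protease that oligodendrocytes make in mouse, was at 102, 76.2 and 57.5 CPM against 4.12, 5.13 and 5.73 CPM (3.98 ± 0.23, adjusted p = 2.27e-06). CARNS1, which makes carnosine, was at 76.3, 69.4 and 50 CPM against 4.6, 3.62 and 3.36 CPM (4.07 ± 0.21), and C1QL4, a synaptic C1q-like protein, at 189.7, 87.5 and 108 CPM against 8.05, 5.52 and 7.58 CPM (4.18 ± 0.3). ARHGEF33, a guanine nucleotide exchange factor by its name, was lower, at 0.162, 0.124 and 0.19 CPM against 12.9, 22 and 18.4 CPM (-6.74 ± 0.36). The groups did not overlap in any of these 6 genes.

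Within the hypothalamus-labelled group, 10286 genes with a mean of at least 5 CPM had a median ratio of highest to lowest library of 1.28, computed after adding 0.5 CPM. In whole brain it was 1.15 over 10228 genes. SSPO, which encodes the SCO-spondin of the subcommissural organ, was the autosomal gene with the largest ratio, 142, at 1.71, 196 and 0.885 CPM in the hypothalamus-labelled libraries and 4.12, 2.76 and 2.83 CPM in the whole-brain libraries. In the deposited counts it was high in hypothalamus library 2 alone, and its direction was reversed without that library (log2 difference -1.34). In the reads recovered from the FPKM column of library 1, SSPO stood at 50.7 RPM, against 1.58 in its deposited counts. CHRNA2, a nicotinic receptor subunit, had a ratio of 25.0, at 15.2, 2.36 and 0.127 CPM against 0.727, 0.855 and 0.527 CPM, and without library 1 its log2 difference of 3.02 ± 1.13 became 0.84 and was not called (edgeR adjusted p = 0.442). PFDN2, a subunit of the prefoldin chaperone, had a ratio of 31.1, at 26.9, 20.8 and 0.38 CPM against 1.39, 0.329 and 0.527 CPM. It was called higher (4.37 ± 1.12, adjusted p = 0.0076), but its recovered reads in library 1 stood at 0.658 RPM against 24.8 in the deposited counts, and limma on the FPKM values did not call it (1.14, adjusted p = 0.371, on log2(FPKM + 1)). SLC6A4 and TPH2 had ratios of 23.0 and 17.0. The W-linked genes ATP5A1W, UBAP2L2 and SPIN1L, with ratios of 61.9 to 498, were high in the deposited counts of hypothalamus library 2 and whole-brain library 1, as was HNRNPKL on an unplaced scaffold. All 4 had 0 deposited counts in hypothalamus library 1, while the reads recovered from its FPKM column held ATP5A1W at 231.5, UBAP2L2 at 56.6, SPIN1L at 17.2 and HNRNPKL at 31.6 RPM. The 2 columns of that library thus differed in W-linked expression.

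The direction of the difference also moved with the chromosome. Of all 15512 genes tested, 57.3% were called, 4412 (28.4%) higher and 4484 (28.9%) lower, with a median of 0.01. Of 9091 tested genes on chromosomes 1 to 10, 57.3% were called, 1938 higher and 3268 lower, with a median of -0.17. Of 5415 on chromosomes 11 to 39, the small chromosomes of the chicken, 59.8% were called, 2280 higher and 959 lower, with a median of 0.33. On chromosome Z, 44.4% of 730 were called, 89 higher and 235 lower, with a median of -0.30. Long noncoding RNAs were called in 44.3% of 1628 tested and protein-coding genes in 59.1% of 13537.

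**Figure D5:**
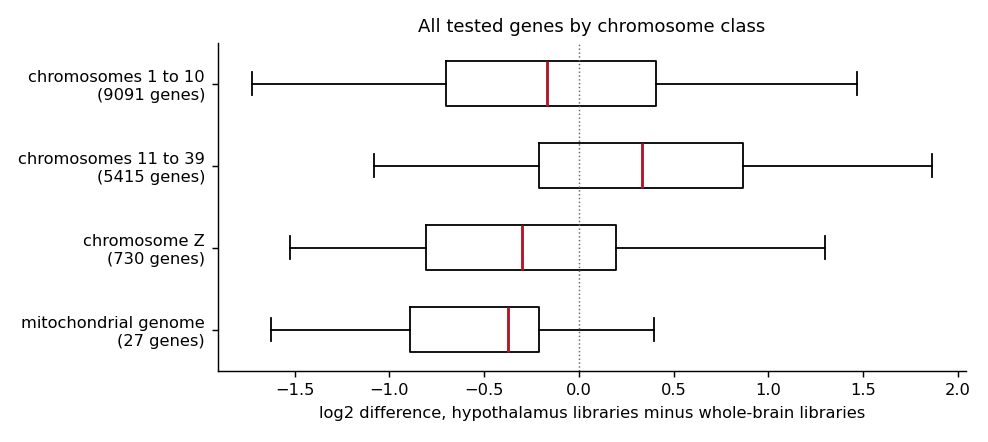
Log2 difference of all tested genes by chromosome class, as boxes from the lower to the upper quartile with the median in red and whiskers to percentiles 5 and 95. The median is -0.17 on chromosomes 1 to 10, 0.33 on chromosomes 11 to 39, -0.30 on chromosome Z and -0.38 on the mitochondrial genome.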

How the data were processed

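RNA-seq counts of 6 libraries, 3 labelled hypothalamus and 3 labelled whole brain from heat-exposed embryos, were compared. The deposited table gives whole-number read counts per gene, and a second deposited table gives FPKM values made by the authors. Per the submitters' processing notes, featureCounts of Subread 2.0.6, the build GRCg7b and DESeq2 3.5.0 were named. No source used here states the aligner or how strand and reads with several matches were handled, so overlapping, antisense and near-identical genes are uncertain. RNA was extracted with TRIzol, per the labels' protocols.

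Groups were taken from the labels. Counts were scaled by TMM and tested with edgeR 4.0.16 (R 4.3.3), quasi-likelihood, with edgeR's filter on low counts by group (15512 of 30742 rows kept). The threshold was a Benjamini-Hochberg adjusted p below 0.05. The SE is the log2 difference divided by the square root of F, an approximation. The 634 rows that name no gene held 0.461% to 0.559% of the counts and were kept, and 0 value columns were unmapped. With 3 against 3 libraries an exact permutation test cannot go below 0.1, so none was used. All FPKM values gave whole reads, within 0.01, in all 6 libraries (100%), and these reads replaced the counts of hypothalamus library 1 in an alternative that called 7610 genes. Alternatives used other scalings, filters and thresholds, W-linked expression as a covariate, limma 3.58.1 on log2(FPKM + 1) or log2(FPKM + 0.1), DESeq2 1.42.0, and each library left out.

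Lists came from general knowledge of regional and cell type genes: of 978 listed symbols, 870 were found, and 5 sat on several rows, TTR among them, of which the row with the most counts was used. The members and lists were chosen with earlier results of these data known. Named genes were the 15 largest differences in each direction among called genes with at least 5 CPM and no overlap, up to 5 tested genes with the lowest p in each list, a set of fixed genes, and the 10 most variable genes within each group; some of these genes are not reported here. Same-numbered libraries did not deviate together (correlations 0.049, -0.059 and -0.007), and the numbers were not used as pairs in the main fit. Deviations in different tissues cannot show whether same-numbered libraries share embryos. The test was tested on simulated data over 15363 genes, with 67, 68 and 63 genes changed by 1.5-, 2- and 4-fold. It recovered 35.8%, 72.1% and 96.8% of these, with 4 of 138 calls false. The simulation used the same dispersion trend for both groups. In the data 57.3% of genes were called and the hypothalamus-labelled libraries varied more, so these rates need not hold for this comparison.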

Additional observations from a re-analysis of the deposited data

How the results depend on the processing

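Of 242 named genes tested, 230 were called, and 203 of these kept their call in each of the 22 alternatives that included them. Some genes, such as CARTPT on chromosome Z, were in 21. A missing DESeq2 adjusted p was counted as no change. Many named genes were chosen by size or low p in the main fit, so their kept calls do not describe all genes called. Leaving out each library in turn gave 7267 to 8946 calls against 8896 with all 6. The other alternatives called 6543 (adjusted p below 0.01) to 9999 (below 0.1) genes, apart from a test against a fold of 1.5 (glmTreat), which called 4053, with 2049 higher and 2004 lower. On log2(FPKM + 1), limma called 1377 genes higher with a log2 difference of at least 1, against 2092. On log2(FPKM + 0.1) it called 2416. Both limma fits also took the FPKM column of hypothalamus library 1, which did not come from its deposited counts. With upper quartile scaling 55.7% of the calls were higher, against 49.6%, and no scaling moved the median of all genes by more than 0.091. The replicate number as a block, for which the labels state no pairing, gave 8467 calls, 4183 higher and 4284 lower. A change of sign was counted as a reversal only if the gene was called in the main fit or in the alternative. Uncalled genes such as HSP90AA1 and HBA1 also changed sign in some alternatives. Directions were reversed for SSPO, 4.35 with all libraries and -1.34 (without hypothalamus library 2) to 4.95 with 1 left out. They were also reversed for MYBPC2, -0.73 and not called with all libraries and -1.24 to 1.49 (without whole-brain library 3) with 1 left out. The cause was not tested. The number of libraries, 3 a group, limits the precision, more so for genes below 1 CPM, and counting intervals would cover counting error only.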
